A study of Mus musculus with 6 samples.

Results

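The keratins are the intermediate filament proteins that give epithelial cells and hair their strength, and their genes were followed in whole dorsal skin of mice that lack the circadian activator BMAL1. Every probe set whose platform gene symbol is Krt followed by digits and at most 1 letter was taken, which gave 52 probe sets for 52 genes among the 23410 probe sets with at least 1 gene symbol and the 35557 on the array. No probe set shared between a keratin and another gene symbol was found. The *Bmal1*-/- group held 3 female mice and the *Bmal1*+/- group held 3 littermates, of which replicate 1 was male and the others female. All 6 mice were in telogen, when follicles rest between growth phases, at postnatal day 22, although a label of *Bmal1*+/- replicate 1 also gives day 23. The mice were on a C57BL/6J background, and each array (Affymetrix Mouse Gene 1.0 ST) took the RNA of a single mouse. The mutant allele is carried by every tissue of these mice, the *Bmal1*+/- mice still carry 1 mutant copy, and no wild-type mouse was part of the comparison.

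Each keratin filament is built from pairs of an acidic type I and a basic type II protein, and each layer of the epidermis and the follicle makes its own pairs. In mouse skin *Krt5* and *Krt14* mark the dividing basal layer, *Krt1* and *Krt10* the differentiating layers above it, *Krt6a*, *Krt16*, *Krt17* and *Krt75* the companion layer and outer root sheath of the follicle, *Krt25* to *Krt28* and *Krt71* to *Krt74* the inner root sheath, and the hair keratins the shaft itself. The inner root sheath and the shaft are built during anagen, the growth phase, and a telogen follicle keeps the finished club hair. Of the 52 genes, 28 were type I and 24 type II. RefSeq (GRCm38.p6) placed 27 on chromosome 11 and 25 on chromosome 15, and lists *Krt74* as a transcribed pseudogene. The hair keratins *Krt81*, *Krt83* and *Krt85* were not analysed here.

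Linear probe set intensities were compared as log2(intensity + 16) with limma, *Bmal1*-/- minus *Bmal1*+/-, with Benjamini-Hochberg adjustment over all 23410 probe sets. The offset of 16 understates the fold change of a dim probe set, and 6 arrays limit the precision. Levels of different probe sets served only to pick the genes given with values and were not read as results. In a summed intensity of a gene list the brighter probe sets weigh more. Array medians lay between 219 and 235.5, no keratin had a value under 16 in any mouse, and 51 of the 52 had a mean intensity of at least 64. *Bmal1*, listed as *Arntl*, had intensities of 569, 609.8 and 664 in *Bmal1*-/- mice and 325, 365 and 355 in *Bmal1*+/- mice, and the position of its probes relative to the deletion was not known, so the genotype cannot be read from it. The BMAL1 target *Nr1d1* had 204, 145 and 237 in *Bmal1*-/- mice, against 1893, 1879.7 and 1561 in *Bmal1*+/- mice. *Krt5*, *Krt14*, *Krt1* and *Krt10*, which define epidermis, had intensities of at least 5043 in every mouse. *Bmal1*+/- replicate 3 stood apart from the other mice in the keratins, so the main keratin counts and the keratin group medians that move with it are also given without it. Medians of the other gene lists are given with all 6 mice only. RNA of whole skin was measured, so fewer cells of a type and less RNA per cell cannot be told apart.

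No keratin was called different between *Bmal1*-/- and *Bmal1*+/- skin. Over all tested probe sets limma called 54, or 0.231%, at an adjusted p under 0.05 (23 higher, 0.0982%, and 31 lower, 0.132%), and the lowest adjusted p of a keratin was 0.325, that of *Krt23*. At an unadjusted p under 0.05, 3 keratins were higher in *Bmal1*-/- skin (*Krt23*, *Krt75* and *Krt6b*, 5.77% of 52) and none was lower, against 8.77% of all tested probe sets in either direction (4.17% higher and 4.6% lower). A regularised test of the Cyber-T type also called none, with 4 higher and 1 lower at an unadjusted p under 0.05. The log2 fold changes ran between −0.25 for *Krt28* and 0.36 for *Krt6a*. Their median was 0.055, against 0.014 over all tested probe sets, and 36 of the 52 (69.2%) were above 0, against 54.7% of all. The median over the keratins was 0.14 without *Bmal1*+/- replicate 3, 0.013 without *Bmal1*+/- replicate 1 and 0.012 without *Bmal1*+/- replicate 2. The 95% intervals were taken for each probe set alone, without adjustment over the 52 keratins, so they are not a joint bound. All 52 intervals lay within −1 to 1 on the log2 scale, as did 99.4% of all tested probe sets. For 43 keratins (82.7%) the interval lay within −0.5 to 0.5, against 88.6% of all. The 3 values of *Bmal1*-/- mice lay wholly above those of *Bmal1*+/- mice for *Krt23* and *Krt75* (3.85% of the keratins, against 6.99% of all tested probe sets) and wholly below them for no keratin (7.68% of all). With 3 mice a group an exact permutation test of a single keratin cannot give a p under 0.1.

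**Figure D1:**
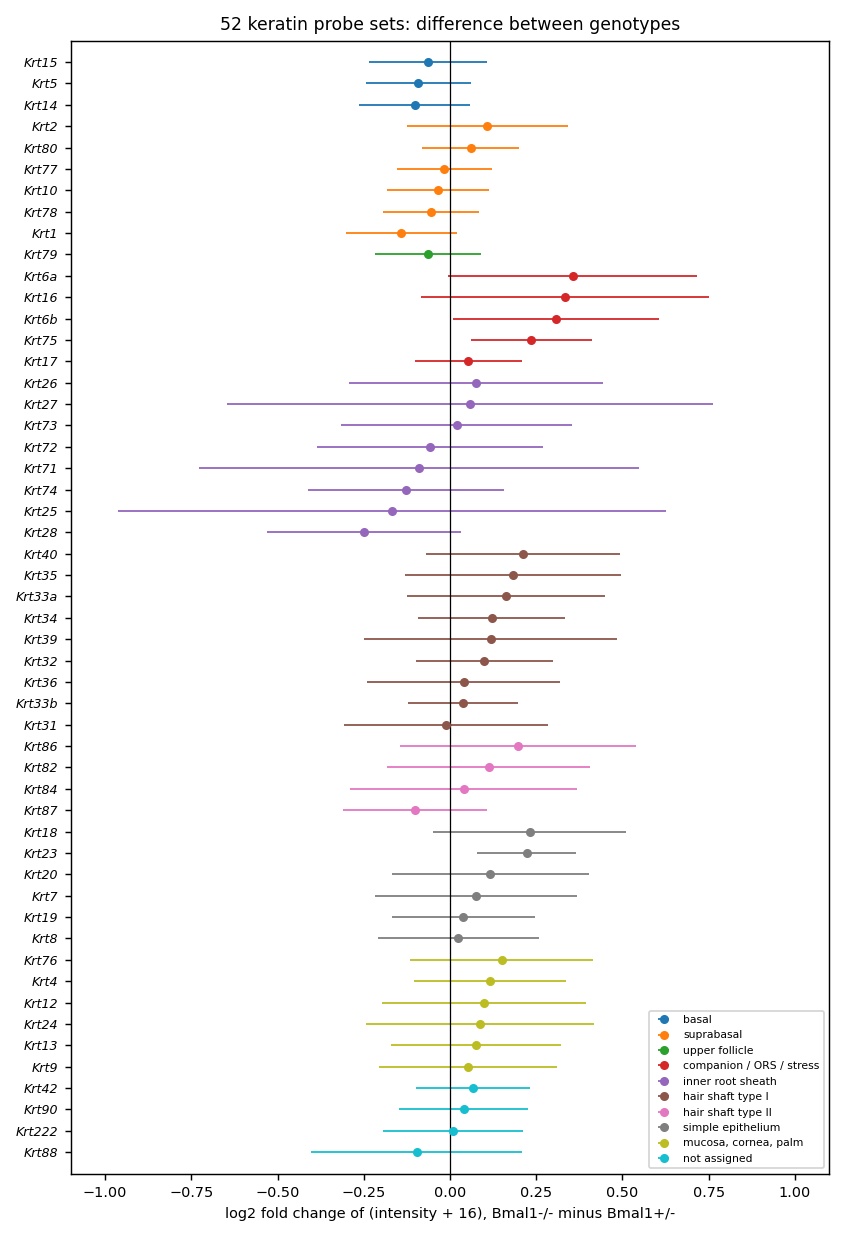
Log2 fold change of log2(intensity + 16), *Bmal1*-/- minus *Bmal1*+/-, for each of the 52 keratins (points) with its 95% interval from limma (lines), coloured by role group. The companion layer keratins lie to the right of 0, by 0.053 to 0.36, the basal keratins lie to the left, at −0.10 to −0.064, and the widest intervals are those of *Krt25*, *Krt27* and *Krt71*.

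The typical keratin varied more between mice of 1 genotype than the typical probe set did, and 1 mouse had the highest value for 29 of the 52. The median within-genotype SD was 0.158 on the log2 scale over the keratins, against 0.112 over all tested probe sets. *Bmal1*+/- replicate 3 had the highest of the 6 values for 29 of the 52 keratins (55.8%) and the lowest for none, while it was highest for 23.5% of all tested probe sets. *Bmal1*+/- replicate 2 was lowest for 21 keratins and *Bmal1*+/- replicate 1 for 16, so the *Bmal1*+/- group held both ends of the range. Dividing each array by its median left *Bmal1*+/- replicate 3 highest for 21 keratins (40.4%, against 15.4% of all), and quantile normalization left it highest for 23 (44.2%, against 16.0%). By role, it was highest for 8 of 8 inner root sheath keratins and 9 of 13 hair shaft keratins, but for 1 of 5 companion layer keratins. The labels give this mouse the same sex, age and stage as *Bmal1*+/- replicate 2.

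**Figure D2:**
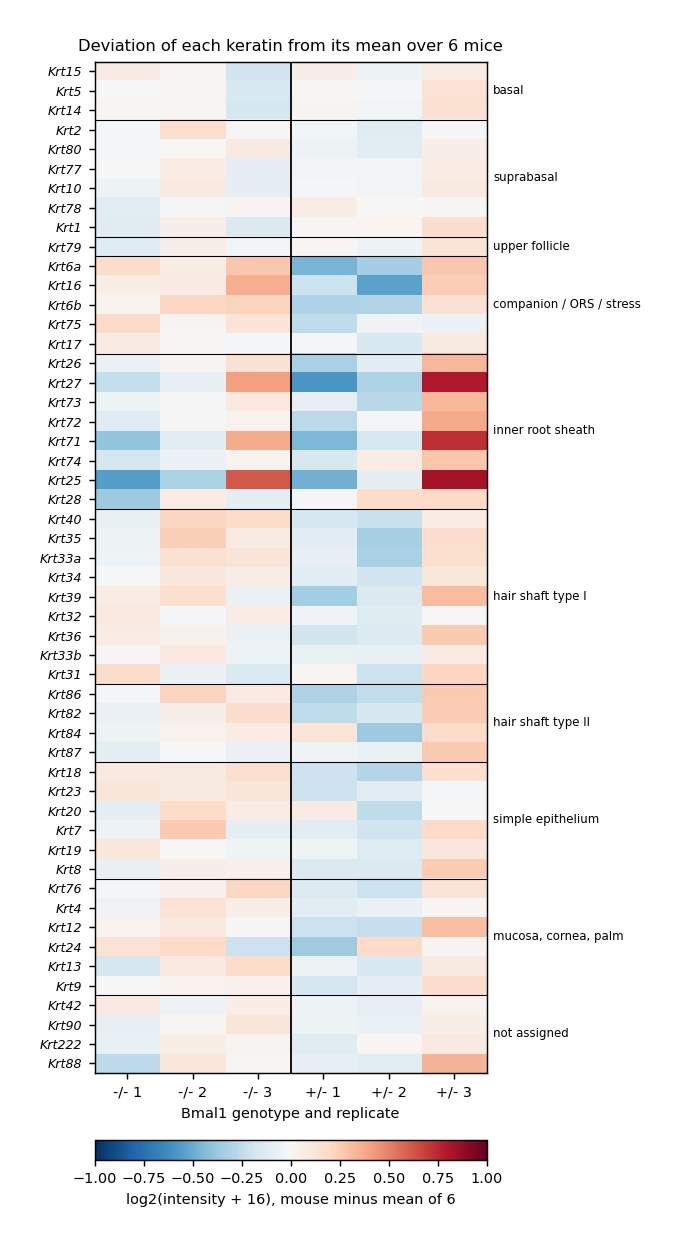
Deviation of log2(intensity + 16) of each keratin (rows, by role group) in each mouse (columns, *Bmal1*-/- left of *Bmal1*+/-) from its mean over the 6 mice. The column of *Bmal1*+/- replicate 3 is above the mean in the inner root sheath and hair shaft rows. Its median over the 8 inner root sheath keratins is 0.36, and the next highest median over those 8 is 0.13, of *Bmal1*-/- replicate 3.

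The basal keratins were close to level between the genotypes. *Krt14*, the type I keratin of dividing keratinocytes, had intensities of 5774, 5742 and 5043 in *Bmal1*-/- mice and 5823, 5605 and 6345 in *Bmal1*+/- mice. Its partner *Krt5* had 11233, 11374 and 10078 in *Bmal1*-/- mice, against 11319.9, 11113 and 12399 in *Bmal1*+/- mice. *Krt15*, which marks the basal layer and the bulge where follicle stem cells lie, had 8880.1, 8473 and 7356 in *Bmal1*-/- mice and 8803, 8111 and 8851 in *Bmal1*+/- mice. *Bmal1*-/- replicate 3 was lowest of the 6 for all 3 genes, and the groups overlapped in each. The log2 fold changes were −0.10 for *Krt14* (95% interval −0.26 to 0.058), −0.092 for *Krt5* (−0.24 to 0.060) and −0.064 for *Krt15* (−0.23 to 0.11), none of which passed the test. The fold change of *Krt15* turned to 0.015 without *Bmal1*-/- replicate 3, and the median of the 3 genes, −0.092, became −0.037 without that mouse and −0.044 without *Bmal1*+/- replicate 3. Proliferation markers, of which 4 of 5 were measured, were also lowest in *Bmal1*-/- replicate 3, with a summed intensity of 680.0, against 1156 to 1443 in the others; their part in the basal values was not tested.

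The 6 suprabasal keratins had a median log2 fold change of −0.026 and none passed the test. Its sign turned when 1 mouse was left out, to 0.011 without *Bmal1*+/- replicate 3 and 0.016 without *Bmal1*-/- replicate 3, and it was −0.046 without *Bmal1*+/- replicate 2 and −0.061 without *Bmal1*-/- replicate 2. *Krt10*, the main type I keratin of the differentiating layers, had 12129.9, 13487 and 11768 in *Bmal1*-/- mice and 12472, 12354 and 13429 in *Bmal1*+/- mice, a log2 fold change of −0.035 with a 95% interval of −0.18 to 0.11. *Krt1*, its type II partner, had 7269.8, 8228 and 7144 in *Bmal1*-/- mice, against 7974, 8035 and 8945 in *Bmal1*+/- mice. Its log2 fold change of −0.14 (95% interval −0.30 to 0.021) was the lowest of the layer, and the groups overlapped because *Bmal1*-/- replicate 2 was above 2 of the *Bmal1*+/- mice. *Krt77*, a type II keratin of the suprabasal layers, gave 11629, 12239 and 10900.5 in *Bmal1*-/- mice and 11453, 11407 and 12287 in *Bmal1*+/- mice. The dim probe set of *Krt2*, a keratin of late differentiation in ear and tail skin, had 66.0, 77.5 and 68.1 in *Bmal1*-/- mice and 65.8, 60.6 and 66.2 in *Bmal1*+/- mice. *Krt80* and *Krt78* had log2 fold changes of 0.060 and −0.056. *Krt79*, a keratin of the upper follicle and sebaceous duct, had 3769, 4283 and 4034 in *Bmal1*-/- mice and 4174, 3962 and 4504 in *Bmal1*+/- mice, with a log2 fold change of −0.064 and an interval of −0.22 to 0.089. The intervals of the basal, suprabasal and upper follicle keratins together ran between −0.30 and 0.34.

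The companion layer, outer root sheath and stress keratins were the group with the highest median, 0.31 on the log2 scale, and none was called. The median was 0.46 without *Bmal1*+/- replicate 3. Of the 5 keratins, 5 were above 0, against 54.7% of all tested probe sets. The group takes in keratins of the companion layer, which lies between the inner and outer root sheath, and of the outer root sheath. *Krt6a*, *Krt6b*, *Krt16* and *Krt17* are also induced in wounded epidermis. *Krt75*, a type II keratin of the companion layer, had intensities of 827, 736 and 792 in *Bmal1*-/- mice and 601, 703 and 690.3 in *Bmal1*+/- mice, so that every *Bmal1*-/- mouse was above every *Bmal1*+/- mouse. The log2 fold change was 0.24 (95% interval 0.060 to 0.41; adjusted p = 0.42, limma). *Krt6a* had 952, 879 and 1010.4 in *Bmal1*-/- mice, against 601, 657 and 1007 in *Bmal1*+/- mice. Of the *Bmal1*+/- mice, replicate 3 reached the level of the *Bmal1*-/- mice and the others lay well under all of them, and the fold change of 0.36 had an interval of −0.0052 to 0.72. The same shape was seen in *Krt6b*, which had 161, 183 and 185 in *Bmal1*-/- mice and 123, 124 and 176 in *Bmal1*+/- mice (log2 fold change 0.31, interval 0.0072 to 0.61). *Krt16*, the type I partner of the KRT6 proteins, had 75.4, 76.9 and 96.8 in *Bmal1*-/- mice, against 59.7, 44.6 and 88.4 in *Bmal1*+/- mice (log2 fold change 0.33, interval −0.085 to 0.75). *Krt17*, the other type I keratin of the group, was nearly level at 3511, 3332 and 3278 in *Bmal1*-/- mice and 3267, 2974 and 3533 in *Bmal1*+/- mice. *Krt6a* and *Krt6b* are near-identical copies, so the signal of their probes may not separate them.

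**Figure D3:**
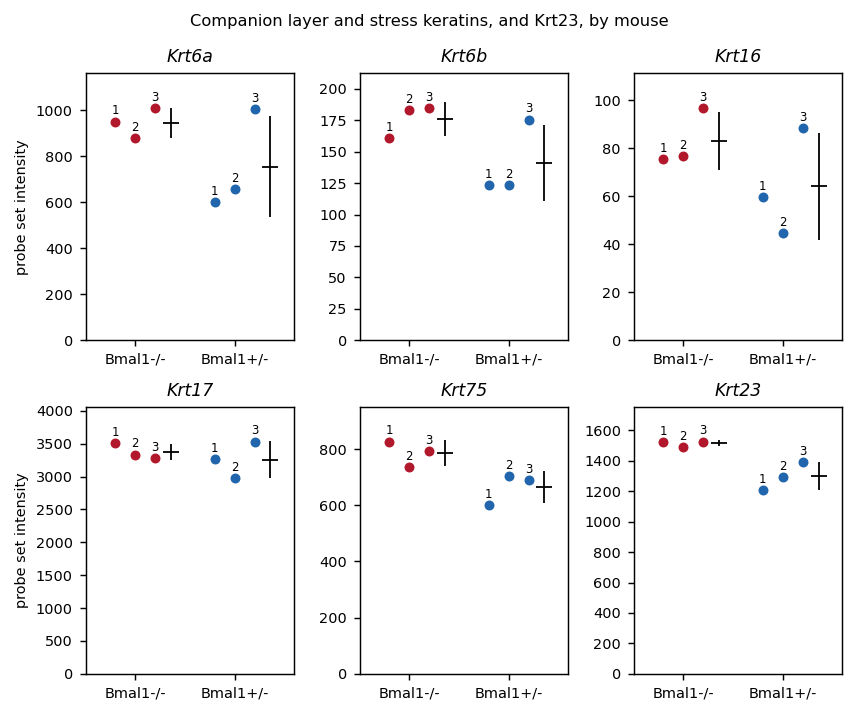
Probe set intensity of 5 companion layer keratins and of *Krt23* in each mouse (numbered points, *Bmal1*-/- left, *Bmal1*+/- right), with the mean and SD of each group beside the points. For *Krt6a*, *Krt6b* and *Krt16* the *Bmal1*+/- replicates 1 and 2 lie below all 3 *Bmal1*-/- mice, and *Bmal1*+/- replicate 3 lies beside them.

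*Krt23*, a type I keratin of simple epithelia, had the lowest p of the 52, with intensities of 1526, 1492 and 1527 in *Bmal1*-/- mice and 1207, 1296 and 1392 in *Bmal1*+/- mice. The *Bmal1*-/- mice were tightly grouped and all above the *Bmal1*+/- mice, with means of 1515 ± 20.0 in *Bmal1*-/- mice and 1298 ± 92.5 in *Bmal1*+/- mice (SD, n = 3 each). The log2 fold change was 0.22 (95% interval 0.079 to 0.37; adjusted p = 0.325, limma), and over the 16 alternative settings the adjusted p lay between 0.201 and 0.674. Promoters were searched for several motifs, and those of *Krt23* and *Krt75*, neither of which was called, both held an E-box. CLOCK and BMAL1 bind the E-box, whose letters are CACGTG on both strands, and the 250 bases before the RefSeq start of these genes hold 1 each, shown here in capitals on the strand of the gene.
Krt23, chr11:99493121-99493370, minus strand, GRCm38.p6: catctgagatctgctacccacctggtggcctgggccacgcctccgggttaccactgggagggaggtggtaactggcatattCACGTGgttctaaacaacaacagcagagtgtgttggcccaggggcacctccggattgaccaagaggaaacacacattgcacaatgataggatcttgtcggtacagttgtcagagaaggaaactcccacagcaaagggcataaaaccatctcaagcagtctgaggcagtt
Krt75, chr15:101573905-101574154, minus strand, GRCm38.p6: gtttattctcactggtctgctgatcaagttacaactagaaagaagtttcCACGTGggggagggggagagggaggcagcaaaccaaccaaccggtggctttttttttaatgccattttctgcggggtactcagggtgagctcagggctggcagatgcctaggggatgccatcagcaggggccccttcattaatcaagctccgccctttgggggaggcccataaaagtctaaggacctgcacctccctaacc
The E-box began 169 bases before the start of *Krt23* and 201 bases before that of *Krt75*. Of the 36 keratins with an entry in the RefSeq promoter table, 3 (8.33%) held an E-box in this window, against 6.05% of 27025 genes. The third was *Krt78*, whose intensities were 809.7, 864 and 888 in *Bmal1*-/- mice and 917, 868 and 879.6 in *Bmal1*+/- mice. The part of the E-box in the values of these genes was not tested. The keratins with no entry were *Krt1*, *Krt4*, *Krt6a*, *Krt6b*, *Krt15*, *Krt16*, *Krt17*, *Krt19*, *Krt33a*, *Krt35*, *Krt74*, *Krt80*, *Krt86*, *Krt87*, *Krt88* and *Krt222*.

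All 6 keratins of simple epithelia had fold changes above 0, as did 54.7% of all tested probe sets. The median of the 6 was 0.096, and none was called. That median was 0.17 without *Bmal1*+/- replicate 3 and 0.15 without *Bmal1*-/- replicate 1, against 0.0063 without *Bmal1*+/- replicate 2 and 0.051 without *Bmal1*-/- replicate 2. *Krt18*, the type I keratin of single-layered epithelia, had 138, 137 and 146 in *Bmal1*-/- mice, against 109, 102 and 145 in *Bmal1*+/- mice. Again *Bmal1*+/- replicate 3 lay among the *Bmal1*-/- mice, and the log2 fold change was 0.23 (95% interval −0.050 to 0.51). *Krt8*, its type II partner, had 1177, 1295 and 1291 in *Bmal1*-/- mice and 1124, 1122 and 1482 in *Bmal1*+/- mice, with *Bmal1*+/- replicate 3 highest of the 6. *Krt7*, *Krt19* and *Krt20* had log2 fold changes of 0.076, 0.039 and 0.12. The 4 genes listed for simple epithelium of other organs or mammary gland were *Epcam*, *Cldn3*, *Cldn4* and *Csn3*. They had summed intensities of 2589, 2813 and 2785 in *Bmal1*-/- mice and 2399, 2264 and 2765 in *Bmal1*+/- mice. Most of each sum came from *Epcam* and *Cldn4*, which had at least 1003 in every mouse and are not specific to other organs. *Csn3*, a milk protein gene, was dim at 26.0 to 57.6. Of these 4 genes, 4 were above 0 in fold change, with a median of 0.10. At an unadjusted p under 0.05 there was 1, against 8.77% of all tested probe sets. Their part in the *Krt8* and *Krt18* values was not tested.

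The inner root sheath keratins had the widest spread of all groups, and it ran within the genotypes, not between them. *Krt25*, a type I keratin of the sheath, had 53.3, 65.2 and 139 in *Bmal1*-/- mice and 56.5, 79.0 and 164 in *Bmal1*+/- mice. *Krt27*, another type I keratin of the sheath, had 106, 119 and 175 in *Bmal1*-/- mice and 80.0, 100.2 and 234 in *Bmal1*+/- mice. *Krt71*, a type II partner whose mutations curl the coat of mice, had 135, 166 and 239.8 in *Bmal1*-/- mice, against 129, 161 and 314 in *Bmal1*+/- mice. In each of these genes the replicate 3 of both genotypes was high and the other 4 mice were low, so the groups overlapped. Trichohyalin, encoded by *Tchh*, fills the sheath between these filaments, and its gene had 246, 246 and 334 in *Bmal1*-/- mice and 150.4, 229 and 530.5 in *Bmal1*+/- mice, again highest in the replicate 3 of each genotype. The within-genotype SD was 0.645 on the log2 scale for *Krt25*, 0.570 for *Krt27* and 0.516 for *Krt71*, against the 0.112 typical of all tested probe sets. The fold changes between genotypes were −0.17 for *Krt25* (95% interval −0.96 to 0.63), 0.058 for *Krt27* (−0.65 to 0.76) and −0.089 for *Krt71* (−0.73 to 0.55).

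**Figure D4:**
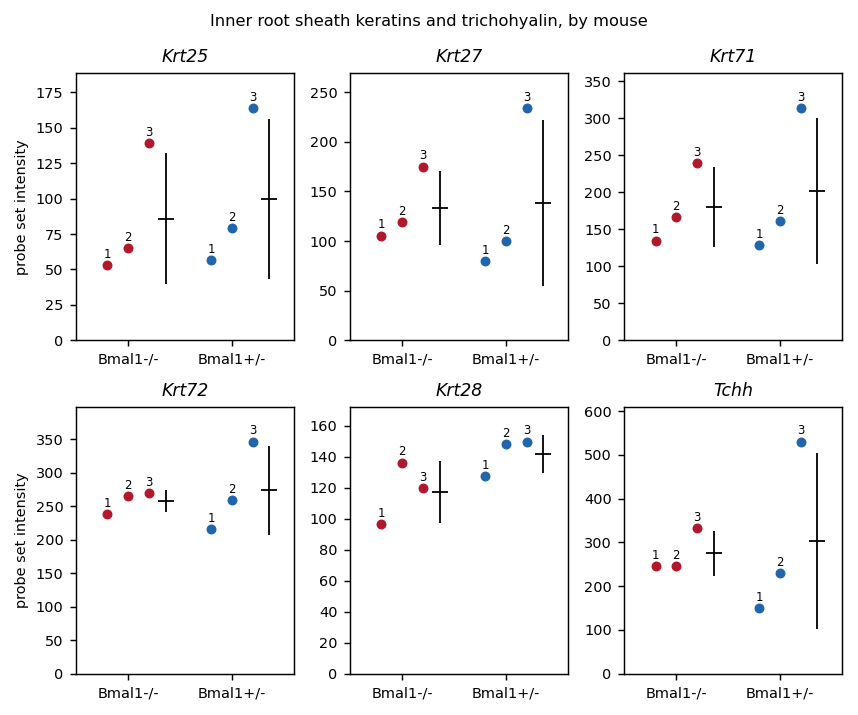
Probe set intensity of 5 inner root sheath keratins and of the trichohyalin gene *Tchh* in each mouse (numbered points, *Bmal1*-/- left, *Bmal1*+/- right), with the mean and SD of each group beside the points. For *Krt25*, *Krt27*, *Krt71* and *Tchh* the replicate 3 of each genotype is the highest of its group, and the other mice of the group lie lower.

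The other sheath keratins varied less between mice. *Krt72* had 238, 264 and 269.6 in *Bmal1*-/- mice and 215, 258 and 346 in *Bmal1*+/- mice. *Krt28*, the keratin with the lowest fold change of the 52, had 96.3, 136 and 119.6 in *Bmal1*-/- mice and 127, 148 and 149.7 in *Bmal1*+/- mice, a log2 fold change of −0.25 with an interval of −0.53 to 0.033. There *Bmal1*+/- replicate 1 lay below *Bmal1*-/- replicate 2, and *Bmal1*-/- replicate 3 was not raised. *Krt26*, *Krt73* and *Krt74* had log2 fold changes of 0.075, 0.019 and −0.13, and the median of the 8 was −0.074. Without *Bmal1*+/- replicate 3 that median became 0.20, without *Bmal1*-/- replicate 1 it became 0.056. It was −0.23 without *Bmal1*+/- replicate 1, −0.12 without *Bmal1*+/- replicate 2 and −0.15 without *Bmal1*-/- replicate 3. Without *Bmal1*+/- replicate 3 *Krt27* reached an unadjusted limma p of 0.036 (adjusted p = 0.301). The summed intensity of the 8 was 869.5, 1008 and 1223 in *Bmal1*-/- mice, against 835, 986 and 1544 in *Bmal1*+/- mice. Markers of the growing hair matrix, *Lef1*, *Msx2*, *Hoxc13*, *Foxn1*, *Shh* and *Krtap6-2*, had sums of 1011, 1217 and 1149 in *Bmal1*-/- mice and 1397, 1074.5 and 1237 in *Bmal1*+/- mice. Of these 6 markers, 4 were highest in *Bmal1*+/- replicate 1 and none in *Bmal1*+/- replicate 3. The brightest of them was *Lef1*, a gene of other skin cells too. *Krtap6-2*, which encodes a matrix protein of the hair shaft, was picked after its values were seen. It had 82.9, 111 and 112 in *Bmal1*-/- mice and 78.3, 69.5 and 107 in *Bmal1*+/- mice. It was highest in the replicate 3 of each genotype, though *Bmal1*-/- replicate 2 was almost level with *Bmal1*-/- replicate 3. The part of the growing hair matrix in the sheath values was not tested.

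The promoters of *Krt25*, *Krt27* and *Krt71*, which were high in the same mice, are shown with the TATA box, the letters TATAAA that position the start of transcription, in capitals.
Krt25, chr11:99322952-99323201, minus strand, GRCm38.p6: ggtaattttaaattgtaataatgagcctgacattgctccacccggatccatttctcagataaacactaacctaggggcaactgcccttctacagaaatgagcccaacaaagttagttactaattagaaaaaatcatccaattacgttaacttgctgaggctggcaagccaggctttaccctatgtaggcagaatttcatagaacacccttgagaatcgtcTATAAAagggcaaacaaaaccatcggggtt
Krt27, chr11:99351119-99351368, minus strand, GRCm38.p6: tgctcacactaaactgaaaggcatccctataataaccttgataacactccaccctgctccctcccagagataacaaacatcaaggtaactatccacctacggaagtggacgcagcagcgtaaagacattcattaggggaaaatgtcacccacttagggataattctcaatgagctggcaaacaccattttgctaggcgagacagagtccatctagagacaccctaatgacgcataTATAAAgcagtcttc
Krt71, chr15:101743098-101743347, minus strand, GRCm38.p6: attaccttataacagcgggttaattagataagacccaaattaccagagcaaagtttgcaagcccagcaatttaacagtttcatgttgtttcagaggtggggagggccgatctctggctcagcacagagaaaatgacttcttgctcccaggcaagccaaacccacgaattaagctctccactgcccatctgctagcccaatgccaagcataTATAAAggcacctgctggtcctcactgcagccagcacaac
The match began 30 bases before the RefSeq start of *Krt25*, 15 before that of *Krt27* and 40 before that of *Krt71*. TATAAA on either strand stood in the 250 bases before the start of 17 of the 36 keratins (47.2%), against 13.0% of 27025 genes. Of the 7 sheath keratins with an entry (all but *Krt74*), it was found in *Krt25*, *Krt26*, *Krt27*, *Krt28*, *Krt71*, *Krt72* and *Krt73*. The motifs were counted separately on both strands, and none of their letters can contain another. The AP-1 letters TGANTCA were found in 1 keratin, *Krt13* (2.78%, against 6.87%), and the letters AGGTCA, bound by ROR and REV-ERB receptors, in 7 keratins (19.4%, against 13.8%). These matches describe letters and do not show binding.

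The 13 hair shaft keratins had a median log2 fold change of 0.11, with 11 above 0 (54.7% of all tested probe sets) and none called. The median was 0.12 for the 9 of type I and 0.076 for the 4 of type II. Without *Bmal1*+/- replicate 3 these became 0.21 and 0.20, and without *Bmal1*+/- replicate 2 they became 0.058 and −0.038. The type II median was also 0.12 without *Bmal1*-/- replicate 1, 0.052 without *Bmal1*+/- replicate 1 and 0.033 without *Bmal1*-/- replicate 3. These keratins build the cortex, medulla and cuticle of the hair, and the layers given here for single members are known best from human hair. Among the type I members, *Krt33b*, of the cortex, had 665, 702 and 635 in *Bmal1*-/- mice and 628, 624 and 697 in *Bmal1*+/- mice. *Krt34* had 235, 254 and 249 in *Bmal1*-/- mice, against 217, 205 and 255 in *Bmal1*+/- mice. *Krt35*, an early keratin of the matrix and cuticle, had 107, 134 and 119 in *Bmal1*-/- mice and 102, 85.1 and 128 in *Bmal1*+/- mice, and *Krt40*, of the cuticle, had 68.2, 86.8 and 84.5 in *Bmal1*-/- mice and 62.9, 60.0 and 77.3 in *Bmal1*+/- mice. In *Krt34* *Bmal1*+/- replicate 3 was the highest of the 6, and it lay among the *Bmal1*-/- mice in *Krt35* and *Krt40*, while *Bmal1*+/- replicate 2 was lowest in all 3. The log2 fold changes of the 9 type I members ran between −0.013 (*Krt31*) and 0.21 (*Krt40*), with an interval of −0.070 to 0.49 for *Krt40*. *Krt33a* and *Krt33b* are close copies, so their probes may not separate them. Of the 4 type II members, *Krt86* had 107, 129.8 and 116 in *Bmal1*-/- mice and 84.6, 89.0 and 133 in *Bmal1*+/- mice. *Krt82*, a cuticle keratin, had 303, 331 and 359 in *Bmal1*-/- mice, against 263, 280.4 and 382 in *Bmal1*+/- mice. *Krt87* had 564, 605 and 580.0 in *Bmal1*-/- mice and 586, 576 and 729 in *Bmal1*+/- mice, and *Krt84*, known from nail and tongue, had 82.8, 89.2 and 92.2 in *Bmal1*-/- mice and 95.6, 63.7 and 100.3 in *Bmal1*+/- mice. For each of these 4, *Bmal1*+/- replicate 3 was the highest mouse, and their log2 fold changes were 0.20 for *Krt86*, 0.11 for *Krt82*, −0.10 for *Krt87* and 0.040 for *Krt84*. The 44 Krtap probe sets, which encode the matrix proteins of the hair shaft, had a median log2 fold change of 0.16, and none was called. Of the 44, 38 were above 0, against 54.7% of all tested probe sets. At an unadjusted p under 0.05, 6 were higher and none lower, against 4.17% and 4.6% of all. *Bmal1*+/- replicate 3 was highest for 19 of the 44 (43.2%), against 23.5% of all. The other 2 *Bmal1*+/- mice were often lowest, replicate 2 for 26 of the 44 and replicate 1 for 11. Over the 23410 tested probe sets they were lowest for 5288 and 5111.

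The 6 keratins of mucosa, cornea and palmoplantar skin were each above 0 in fold change, as were 54.7% of all tested probe sets. The median of the 6 was 0.093, and none was called. The median was 0.15 without *Bmal1*+/- replicate 3, 0.043 without *Bmal1*+/- replicate 1, 0.051 without *Bmal1*+/- replicate 2 and 0.060 without *Bmal1*-/- replicate 2. *Krt12*, the keratin of the cornea, had 349, 366 and 344 in *Bmal1*-/- mice and 291, 288 and 422 in *Bmal1*+/- mice, with *Bmal1*+/- replicate 3 highest. *Krt24* had 588, 614 and 457 in *Bmal1*-/- mice, against 413, 609 and 543 in *Bmal1*+/- mice. *Krt76*, an oral keratin, had 113, 119 and 136 in *Bmal1*-/- mice and 103, 97.5 and 128 in *Bmal1*+/- mice, and *Krt4*, of the oesophagus, had 91.5, 106 and 99.7 in *Bmal1*-/- mice and 85.7, 89.3 and 95.1 in *Bmal1*+/- mice. *Krt9* and *Krt13* had log2 fold changes of 0.052 and 0.076. Of the 4 keratins with no role assigned, *Krt42* had 414, 374 and 407 in *Bmal1*-/- mice and 374, 366 and 398 in *Bmal1*+/- mice. *Krt88* had 271, 356 and 331 in *Bmal1*-/- mice and 309.6, 304 and 420.3 in *Bmal1*+/- mice, and its log2 fold change of −0.097 was the lowest of the 4. *Krt90* had 261, 280.2 and 302 in *Bmal1*-/- mice, against 267, 263 and 289 in *Bmal1*+/- mice, and *Krt222* had 186, 207 and 201 in *Bmal1*-/- mice and 180.3, 200.1 and 212 in *Bmal1*+/- mice, with log2 fold changes of 0.040 for *Krt90* and 0.0074 for *Krt222*. The groups overlapped in all 10 of these genes.

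How many keratins were higher in *Bmal1*-/- skin depended on *Bmal1*+/- replicate 3. Without it, 16 keratins (30.8%) were higher at an unadjusted limma p under 0.05, against 11.0% of all tested probe sets, and none was called. The lowest adjusted p was then 0.060, for *Krt6a*, with a log2 fold change of 0.58, followed by *Krt6b* (0.46, adjusted p = 0.153) and *Krt18* (0.37, adjusted p = 0.204). The 3 *Bmal1*-/- mice were all above both remaining *Bmal1*+/- mice for 29 keratins (55.8%), against 22.3% of all tested probe sets. This view keeps the *Bmal1*+/- mice that were lowest for most keratins, and it leaves 0.184% of all tested probe sets called. Leaving out the male *Bmal1*+/- replicate 1 in its place left 1 keratin, *Krt23*, higher at an unadjusted p under 0.05. Leaving out any of the other 4 mice left 2 or 3 higher. Without *Bmal1*-/- replicate 2, 2 keratins, *Krt28* and *Krt1*, were lower at that threshold.

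**Figure D5:**
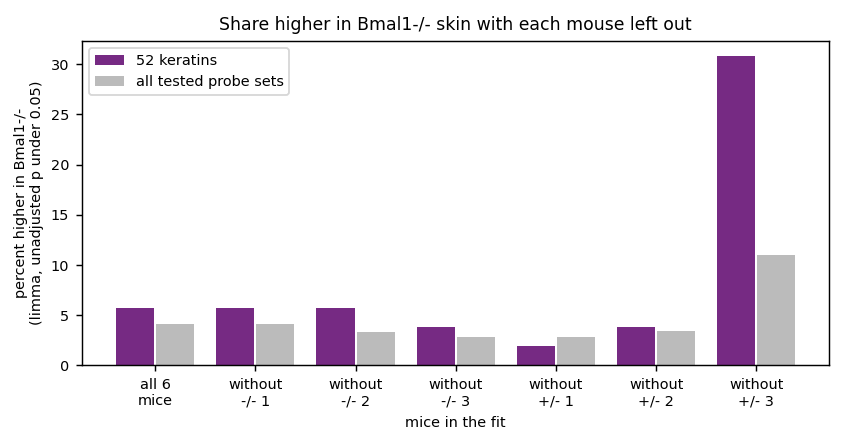
Percent of the 52 keratins (purple) and of all tested probe sets (grey) that were higher in *Bmal1*-/- skin at an unadjusted limma p under 0.05, with all 6 mice and with each mouse left out. The keratin share is 5.77% with all mice and 30.8% without *Bmal1*+/- replicate 3, where the share of all tested probe sets is 11.0%.

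Genes that anchor, cross-link or regulate the keratins were read from the same fit, and none was called. Of the desmosome genes, 14 of 16 were measured, with a median log2 fold change of −0.015 and 1 lower at an unadjusted p under 0.05, *Dsg2*, a desmosomal cadherin, which had 251, 268 and 254 in *Bmal1*-/- mice and 359, 289.5 and 315 in *Bmal1*+/- mice. *Dsc2*, its desmocollin partner, had 252, 286 and 308 in *Bmal1*-/- mice, against 309.6, 316 and 349.5 in *Bmal1*+/- mice. The groups did not overlap for either gene, *Bmal1*-/- being the lower, with log2 fold changes of −0.30 for *Dsg2* and −0.20 for *Dsc2*. Neither passed the test after adjustment, and they were picked as the 2 of lowest p in the list. Of all tested probe sets, 7.68% lay wholly below in *Bmal1*-/- mice, and 4.6% were lower at an unadjusted limma p under 0.05. Of the hemidesmosome genes, which tie basal keratins to the basement membrane, 7 of 8 were measured, with a median of −0.014. *Lamb3*, a laminin chain, had 802, 803 and 778 in *Bmal1*-/- mice and 735, 675 and 706 in *Bmal1*+/- mice, and *Col17a1*, a transmembrane collagen, had 3104, 3352 and 3265 in *Bmal1*-/- mice and 3731, 3399 and 3634 in *Bmal1*+/- mice. The groups did not overlap in either gene, as in 14.7% of all tested probe sets. The directions were opposite, with log2 fold changes of 0.17 for *Lamb3* and −0.15 for *Col17a1*.

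Of the genes for the keratin matrix and cross-linking, 13 of 14 were measured, with a median log2 fold change of 0.13, 3 higher and 1 lower at an unadjusted p under 0.05. Over all tested probe sets 4.17% were higher and 4.6% lower at that threshold, and 14.7% had groups that did not overlap. *Tgm5*, a transglutaminase of the cornified envelope, had 1129, 1068 and 872 in *Bmal1*-/- mice, against 1399, 1201 and 1517 in *Bmal1*+/- mice, with all *Bmal1*-/- mice below all *Bmal1*+/- mice. Its log2 fold change of −0.42 had an adjusted p of 0.265 with limma and 0.039 with the Cyber-T type test. Over the whole array the Cyber-T type test called several times as many probe sets as limma did. *Ivl*, for the envelope protein involucrin, had 1373, 1314 and 1246 in *Bmal1*-/- mice and 1037, 1129 and 1191 in *Bmal1*+/- mice, a log2 fold change of 0.23 (adjusted p = 0.369, limma). All 20 transcription factors of keratinocytes and hair were measured, with a median of −0.050, 2 higher and 4 lower at an unadjusted p under 0.05. *Foxq1*, a forkhead factor needed for the satin coat texture and medulla of mouse hair, had 233, 229 and 229 in *Bmal1*-/- mice and 281, 315 and 315 in *Bmal1*+/- mice. The *Bmal1*-/- mice lay within a narrow band below every *Bmal1*+/- mouse, with a log2 fold change of −0.37 and an adjusted p of 0.146 with limma and 0.032 with the Cyber-T type test. *Lef1*, a Wnt effector of the hair matrix, had 311, 343 and 299.6 in *Bmal1*-/- mice, against 495, 375 and 398 in *Bmal1*+/- mice, with a log2 fold change of −0.39 (adjusted p = 0.297, limma).

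Markers of the other cell types in dorsal skin were read beside the keratins. The 5 melanocyte markers had summed intensities of 1224, 1129 and 1040.0 in *Bmal1*-/- mice and 1892, 1467 and 1456 in *Bmal1*+/- mice. All 5 were highest in *Bmal1*+/- replicate 1, the male, 4 were lower in *Bmal1*-/- skin at an unadjusted p under 0.05, and none was called (lowest adjusted p 0.124, limma, *Tyrp1*). Of all tested probe sets, 15.8% were highest in that mouse and 4.6% were lower at an unadjusted limma p under 0.05. The Cyber-T type test, which called several times as many probe sets over the whole array as limma did, called 2 of the 5. These were *Dct* (log2 fold change −0.65, adjusted p = 0.0015) and *Tyrp1* (log2 fold change −0.39, adjusted p = 0.020), both of which encode enzymes of melanin synthesis. Limma with the replicate block called *Dct* (adjusted p = 0.027). Both genes were singled out after their values were seen. The 6 fibroblast markers were each below 0 in fold change, with a median of −0.15, 2 lower at an unadjusted p under 0.05, and sums of 65824 to 73745 in *Bmal1*-/- mice and 72120.4 to 79641 in *Bmal1*+/- mice. Those of sebaceous gland (6 of 6 measured), adipocytes (4 of 5), striated muscle (6 of 6), endothelium (4 of 4) and leukocytes (4 of 4) had medians between −0.088 and 0.13, with none at an unadjusted p under 0.05. *Bmal1*+/- replicate 3 was the highest mouse for none of the sebaceous, adipocyte, muscle, melanocyte and endothelium markers. The same held for the markers of growing hair matrix and proliferation, and for *Epcam*, *Cldn3*, *Cldn4* and *Csn3*. *Bmal1*+/- replicate 3 was highest for 2 of the 4 leukocyte markers and for 1 of the 6 fibroblast markers. Among the genes tied to the keratins it was highest for 9 of 14 desmosome genes, 6 of 13 genes of the keratin matrix and cross-linking, 2 of 20 transcription factors and 0 of 7 hemidesmosome genes. The part of these cell types in the keratin values was not tested.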

How the data were processed

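RNA of whole dorsal skin was measured on 6 arrays, 3 from *Bmal1*-/- and 3 from *Bmal1*+/- mice. The authors deposited 1 linear intensity per probe set and array, for which the submitters' processing notes name PLIER 2.0 and Affymetrix Expression Console 1.1. Background correction, array scaling, filters and a genome build were steps not given in the sources used here. Gene symbols came from the platform annotation, and gene types and promoter sequences from RefSeq (GRCm38.p6, the first listed start of each gene).

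The deposited values were put on the scale log2(intensity + 16). The 23410 probe sets with at least 1 symbol were compared as *Bmal1*-/- minus *Bmal1*+/- by lmFit and trended eBayes of limma 3.58.1 (R 4.3.3) in a two-sided test, adjusted by Benjamini-Hochberg over all of them, and called at an adjusted p under 0.05. A further 12147 probe sets carry no symbol and were not tested. The labels call the mice biological replicates. The code was tested on simulated data.

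Alternatives changed the offset, the scaling, the filter on dim probe sets (mean intensity of at least 64), the set of rows, the variance trend, the test (a Cyber-T type test with prior weight 10 and a 101 probe set window), the replicate block and the sex term, or left out 1 mouse. The keratins and the gene lists were chosen with earlier results of these data known, and role groups were taken from general knowledge. The genes given with values were the 6 keratins with the lowest p, the 2 brightest and the 2 with the largest change in each role group (or all of a group of 4 or fewer), and the 2 of lowest p in each other list. *Tchh*, *Krt27*, *Krt78*, *Krtap6-2* and the melanocyte markers *Dct* and *Tyrp1* were added after their values were seen. Figures were drawn with matplotlib 3.10.9 in Python 3.11.15.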

Additional observations from a re-analysis of the deposited data

How the results depend on the processing

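No keratin was called at an adjusted p under 0.05 under any of the 16 alternatives, and the lowest adjusted p of a keratin ran between 0.060 (without *Bmal1*+/- replicate 3) and 0.674. The calls over all probe sets, 31 lower and 23 higher, became 19 and 15 with all rows tested, 16 and 11 without the variance trend, and 177 and 96 with the Cyber-T type test. Leaving out 1 mouse gave 22 to 34 lower and 13 to 23 higher. Keratins higher at an unadjusted p under 0.05, which numbered 3, were 1 with sex as a covariate and 1 to 16 with 1 mouse left out, and the fit with sex as a covariate gives the fold changes of that without *Bmal1*+/- replicate 1. Keratins lower at that threshold, of which there were none, were 1 with quantile normalization, 1 with the Cyber-T type test and 0 to 2 with 1 mouse left out. The cause of these changes was not tested. The labels do not say whether replicate numbers pair the mice, and the main fit did not pair them. Correlations of same-numbered mice were 0.078, −0.35 and 0.056, and those of differently numbered mice ran from −0.26 to 0.26. With 3 mice a group these values can neither show nor exclude a pairing. The replicate block gave 34 lower and 20 higher calls, no keratin call, and 5 keratins higher and 1 lower at an unadjusted p under 0.05.

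The log2 fold change took both signs over the alternatives for 23 of the 52 keratins, none of them called. Quantile normalization gave −0.034 for *Krt84*, −0.012 for *Krt222*, −0.0058 for *Krt36*, −0.014 for *Krt26*, −0.023 for *Krt27*, −0.048 for *Krt73* and −0.028 for *Krt9*. Sex as a covariate gave −0.067 for *Krt24*, −0.051 for *Krt222*, −0.041 for *Krt8*, −0.023 for *Krt39*, −0.042 for *Krt36*, −0.069 for *Krt26*, −0.22 for *Krt27*, −0.018 for *Krt73* and −0.019 for *Krt9*. With 1 mouse left out the ranges were −0.12 to 0.015 for *Krt15*, −0.011 to 0.11 for *Krt17*, −0.16 to 0.0054 for *Krt87*, −0.13 to 0.14 for *Krt84*, −0.52 to 0.20 for *Krt25*, −0.21 to 0.12 for *Krt72*, −0.34 to 0.26 for *Krt71*, −0.067 to 0.22 for *Krt24*, −0.18 to 0.048 for *Krt88*, −0.011 to 0.089 for *Krt90*, −0.051 to 0.055 for *Krt222*, −0.043 to 0.16 for *Krt8*, −0.093 to 0.0054 for *Krt10*, −0.056 to 0.027 for *Krt77*, −0.023 to 0.30 for *Krt39*, −0.042 to 0.18 for *Krt36*, −0.12 to 0.090 for *Krt31*, −0.069 to 0.26 for *Krt26*, −0.22 to 0.47 for *Krt27*, −0.12 to 0.19 for *Krt73*, −0.019 to 0.15 for *Krt9*, −0.035 to 0.19 for *Krt7* and −0.017 to 0.10 for *Krt19*. With 1 mouse left out the medians ran from 0.012 to 0.14 over all keratins, −0.23 to 0.20 for the inner root sheath, −0.11 to −0.015 for the upper follicle and −0.013 to 0.068 for those with no role assigned. Among the other genes given with values, *Foxq1* (−0.37), *Tgm5* (−0.42), *Dct* (−0.65) and *Tyrp1* (−0.39) were called with the Cyber-T type test, and *Dct* also with the replicate block.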
